A study of Mus musculus with 13 samples.

Results

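The genes described here are 8 genes of cholesterol synthesis and of its control, Hmgcs1, Idi1, Fdft1, Sqle, Lss, Insig1, Srebf2 and Abca1, out of 55487 genes counted in mouse embryonic fibroblasts (MEFs). They were chosen by symbol for their place in the pathway, and all 8 were found once in both count tables. RNA was sequenced from 13 libraries in 4 groups. The wild-type (WT) cells gave 3 primary libraries, from clones 3, 4 and 5, and 3 immortalized libraries, from the line grown out of each. The cells labelled Prkd3-/-, a name for the loss of both copies of Prkd3, which encodes a protein kinase D, gave 3 primary libraries, from clones 13, 14 and 15, and 4 immortalized libraries, from lines 13, 13a, 14 and 15. Primary cells were grown in 10% fetal calf serum and passaged until senescence, the medium was then raised to 20% serum until colonies grew out, and by the study's methods the established lines were expanded in 10% again. The higher serum was thus a phase that each line had passed through, and serum history and immortalization cannot be told apart. Each line grew out of colonies that arose in prolonged culture, and lines 13 and 13a carry the same clone number.

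The libraries held 35273408 to 100441756 counts, so that 3 counts correspond to 0.02987 to 0.08505 CPM (counts scaled to a common library size). CPM values below are scaled by TMM over the 13 libraries. The 10 fibroblast markers summed to 30011.7 to 96782.3 CPM, carried by collagens, Fn1 and Vim. Single markers were low in some lines: WT line 3 had 0.0498 CPM of Lum, or 3 counts, and 0.68 CPM of Dcn, and Prkd3-/- line 13 had 0.371 CPM of Dcn and 4.71 CPM of Thy1. Macrophage markers were also present: 10 of them summed to 641 to 674 CPM in WT primary cells and to 33.6 to 95.7 CPM in WT lines. In the Prkd3-/- cells these sums were 87.3, 1058.1 and 207 CPM in primary clones 13, 14 and 15, and 17.2, 175, 10.3 and 16 CPM in lines 13, 13a, 14 and 15. All 3 WT primary libraries held both Xist (2982 to 4028 counts) and the Y-linked Ddx3y (2888 to 5855 counts), and they differed from each other by only 2.25% to 3.43% beyond sampling noise, against 20.3% to 26.3% among WT lines. By the study's methods the clones came from separate embryos, but transcripts of both sexes in 1 library put a single embryo in doubt for each WT primary library, and the SEs and calls in WT rest on these 3. Prkd3 itself was still counted in the Prkd3-/- libraries, at 38.9 ± 5.05 CPM (SD, n = 3) in primary cells and 53 ± 8.05 CPM (n = 4) in lines, against 71.1 ± 2.36 and 83.8 ± 10.4 CPM (n = 3 each) in WT. The WT and Prkd3-/- counts were deposited as separate tables, so genotype and table cannot be told apart. Mean Xist was 48.1 CPM in WT primary cells and 131 CPM in WT lines, against 0.0192 and 0.0763 CPM in Prkd3-/- cells. Mean Ddx3y was 71 and 83.1 CPM in Prkd3-/- primary cells and lines. Among WT lines Xist ran from 56.4 to 175 CPM and Ddx3y from 0.216 to 65.6 CPM. Xist level and genotype thus cannot be told apart either, and the part of sex in differences between lines was not tested.

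Cells make cholesterol from acetyl-CoA through the mevalonate pathway, and the enzymes of this chain are switched on together when membranes run low in sterol. The switch is SREBP2, a transcription factor made as a membrane protein of the endoplasmic reticulum; INSIG proteins hold it there while sterol is plentiful, and its release turns on the synthesis enzymes, INSIG1 and SREBP2 itself. Sterol in excess acts in the opposite way through the LXR receptors, which turn on exporters such as ABCA1, and cells in serum also take up cholesterol with lipoproteins. The SREBP proteins bind sterol regulatory elements in promoters, usually beside sites for the factor NF-Y.

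RefSeq promoter windows (GRCm38.p6, 250 bases before to 50 bases after the gene start) were found for 6 of the 8 genes, Hmgcs1, Idi1, Lss, Insig1, Srebf2 and Abca1. Of these, 4 are shown, since they cover an early enzyme, both regulators and the exporter whose levels tended to run against theirs. Capitals mark the sterol regulatory element core TCACNCCA and the NF-Y box CCAAT, both searched on both strands (an NF-Y box on the other strand reads ATTGG).
Hmgcs1, chr13:119690101-119690400, + strand: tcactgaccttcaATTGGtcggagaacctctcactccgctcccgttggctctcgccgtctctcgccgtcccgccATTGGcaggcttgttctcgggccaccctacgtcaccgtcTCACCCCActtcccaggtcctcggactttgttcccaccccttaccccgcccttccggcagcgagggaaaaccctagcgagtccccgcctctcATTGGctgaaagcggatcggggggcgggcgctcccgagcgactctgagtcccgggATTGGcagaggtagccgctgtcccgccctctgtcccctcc
Srebf2, chr15:82147019-82147318, + strand: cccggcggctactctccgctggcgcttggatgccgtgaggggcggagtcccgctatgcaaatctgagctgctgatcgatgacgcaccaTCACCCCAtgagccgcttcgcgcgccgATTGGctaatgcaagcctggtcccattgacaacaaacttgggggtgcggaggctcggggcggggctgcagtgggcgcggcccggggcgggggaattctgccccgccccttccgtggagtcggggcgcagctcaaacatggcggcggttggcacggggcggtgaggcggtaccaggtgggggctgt
Insig1, chr5:28071162-28071461, + strand: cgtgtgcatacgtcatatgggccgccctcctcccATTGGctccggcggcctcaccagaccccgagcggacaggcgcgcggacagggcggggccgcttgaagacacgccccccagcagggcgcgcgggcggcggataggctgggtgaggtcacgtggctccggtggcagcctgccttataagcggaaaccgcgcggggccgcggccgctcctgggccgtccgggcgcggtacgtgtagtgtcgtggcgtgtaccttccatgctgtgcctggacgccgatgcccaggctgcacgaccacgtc
Abca1, chr4:53159846-53160145, - strand: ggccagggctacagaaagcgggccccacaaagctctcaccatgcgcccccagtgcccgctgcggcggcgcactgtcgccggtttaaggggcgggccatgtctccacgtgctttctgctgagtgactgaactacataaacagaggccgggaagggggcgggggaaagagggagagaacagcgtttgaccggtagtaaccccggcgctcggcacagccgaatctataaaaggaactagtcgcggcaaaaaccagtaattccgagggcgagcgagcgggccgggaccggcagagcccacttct
The sterol regulatory element letters were found in Hmgcs1 and Srebf2, beside a share of 4.36% of the 32851 promoter windows. The Hmgcs1 copy begins 137 bases before the gene start and the Srebf2 copy 162 bases before it. The Hmgcs1 window held 4 NF-Y boxes, the Idi1 window 2, and the Lss, Insig1 and Srebf2 windows 1 each, whereas the Abca1 window held 0; of all windows, 37.4% held at least 1. The E-box CACGTG, a site that SREBP proteins can also bind, was found in Insig1 and Abca1 (7.15% of all windows), and the GC box GGGCGG, the site of the factor Sp1, in all 6 (35.7% of all windows). Sites of different motifs did not overlap in any of the 6 windows.

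Per length of exon, the 8 genes covered a wide range. Hmgcs1, the enzyme that makes HMG-CoA, had the highest mean over the 13 libraries, at 56.6 FPKM (fragments scaled to exon length and library depth), and Srebf2 followed at 43.3 FPKM. Insig1 (34.9 FPKM), Sqle (29.6 FPKM) and Fdft1 (28.6 FPKM) were next, and Lss (8.27 FPKM), Abca1 (7.14 FPKM) and Idi1 (5.21 FPKM) were lowest. The ranges of neighbours in this order overlapped, as for Sqle (18.1 to 48.1 FPKM) and Fdft1 (17 to 43.2 FPKM), except that each Fdft1 value lay above the highest of Lss, 13.2 FPKM. Srebf2 varied least among the libraries, by 1.68 times from the lowest to the highest CPM, and Abca1 most, by 18.1 times. The counting of the WT table assigned a read pair to each gene it overlapped and ignored strand, and the options for the Prkd3-/- table are not given in the sources used here. Some exon bases are shared with a neighbour for Fdft1 (18.8%, with Ctsb), Hmgcs1 (12.1%, with Gm48342), Idi1 (9.2%, with Gm48574) and Lss (3.5%, with 4930483K19Rik), so these values may hold some reads of the neighbour. Ctsb had 381 to 1489.9 CPM, well above Fdft1, and its part in the Fdft1 counts was not tested.

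The first comparison asked whether the pathway differed between immortalized and primary cells. None of the 8 genes passed the study's thresholds (adjusted p under 0.01 and |Log2FC| of at least 1) or an adjusted p under 0.05 alone in either genotype with all libraries included, in edgeR's quasi-likelihood test. For the 7 genes other than Abca1, the WT primary libraries held each gene in a narrow band, and the WT lines were spread around it more widely.

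Hmgcs1 measured 253, 260 and 265 CPM in WT primary clones 3, 4 and 5, and 190, 405 and 193 CPM in the lines of the same numbers. In the Prkd3-/- cells it measured 285, 264 and 227 CPM in primary clones 13, 14 and 15, and 319, 259, 231 and 228 CPM in lines 13, 13a, 14 and 15. WT line 4 was above each primary library and lines 3 and 5 below, while the group means were nearly equal, at 259 ± 6.21 CPM for WT primary cells and 263 ± 123 CPM for WT lines (SD, n = 3 each). The Log2FC was -0.02 (SE 0.32) in WT and 0.01 (SE 0.19) in Prkd3-/- cells. The WT value rested on line 4: without it Hmgcs1 had a Log2FC of -0.47 and passed an adjusted p under 0.05 (adjusted p = 0.0474 in edgeR's quasi-likelihood test), though not the study's thresholds. Of all 20402 genes tested without line 4, 310 were higher and 1144 lower at an adjusted p under 0.05.

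Idi1, which isomerizes the isoprene unit, measured 14.4, 15.4 and 16.3 CPM in WT primary cells and 9.07, 18.2 and 10.9 CPM in WT lines 3, 4 and 5. In Prkd3-/- cells it measured 18.8, 16.8 and 19.7 CPM in primary clones and 34.2, 24, 10.9 and 28.7 CPM in lines 13, 13a, 14 and 15. Line 4 was again above the WT primary cells and lines 3 and 5 below; of the Prkd3-/- lines, 3 were above each primary library and line 14 below. The Log2FC was -0.31 (SE 0.27) in WT and 0.42 (SE 0.37) in Prkd3-/- cells.

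Fdft1, squalene synthase, measured 107, 104 and 110 CPM in WT primary cells and 70, 124 and 118 CPM in lines 3, 4 and 5. The Prkd3-/- primary clones had 120, 114 and 108 CPM and the lines had 146, 178, 91.9 and 142 CPM (13, 13a, 14 and 15). Line 3 in WT and line 14 in Prkd3-/- cells stood below their primary libraries, and WT line 5, unlike for Idi1, stood above. The Log2FC was -0.08 (SE 0.23) in WT and 0.30 (SE 0.23) in Prkd3-/- cells.

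Sqle, squalene epoxidase, measured 135, 141 and 151 CPM in WT primary cells and 100, 187 and 141 CPM in lines 3, 4 and 5. In Prkd3-/- cells it measured 166, 123 and 137 CPM in primary clones and 224, 267, 149 and 212 CPM in lines 13, 13a, 14 and 15. Lines 13, 13a and 15 were above each Prkd3-/- primary library, and line 14 lay among them. Of the 8 genes Sqle had the smallest p for the Prkd3-/- cells, with a Log2FC of 0.59 (SE 0.23, 95% confidence interval 0.05 to 1.14, adjusted p = 0.73 in edgeR's quasi-likelihood test); in WT the Log2FC was -0.03 (SE 0.23).

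Lss, lanosterol synthase, which closes the sterol rings, measured 78.4, 84.2 and 92.3 CPM in WT primary cells and 47, 143 and 65.8 CPM in lines 3, 4 and 5. The Prkd3-/- primary clones had 91.8, 74.2 and 73.6 CPM and the lines had 125, 119, 61.3 and 105 CPM (13, 13a, 14 and 15). The highest WT line held 3.04 times the lowest. The Log2FC was -0.04 (SE 0.41) in WT and 0.37 (SE 0.27) in Prkd3-/- cells.

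The regulators ranked the WT lines as the enzymes did. Insig1 measured 76.5, 78.2 and 85.9 CPM in WT primary cells and 47, 174 and 85.6 CPM in lines 3, 4 and 5. In Prkd3-/- cells it measured 104, 123 and 94.1 CPM in primary clones and 151, 195, 63.7 and 125 CPM in lines 13, 13a, 14 and 15. Of the 7 genes other than Abca1 it had the widest range among WT lines, 3.71 times from lowest to highest, and its Log2FC was 0.31 (SE 0.46) in WT and 0.33 (SE 0.35) in Prkd3-/- cells. Without line 4 the WT value was -0.31 and remained short of the threshold (adjusted p = 0.582 in edgeR's quasi-likelihood test).

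Srebf2, the gene of SREBP2, measured 287, 292 and 308 CPM in WT primary cells and 228, 350 and 244 CPM in lines 3, 4 and 5. The Prkd3-/- primary clones had 345, 245 and 311 CPM and the lines had 378, 383, 320 and 356 CPM (13, 13a, 14 and 15). The order of the WT lines was that of Lss and Insig1, within a narrower range of 1.53 times. The Log2FC was -0.15 (SE 0.18) in WT and 0.26 (SE 0.19) in Prkd3-/- cells.

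**Figure D1:**
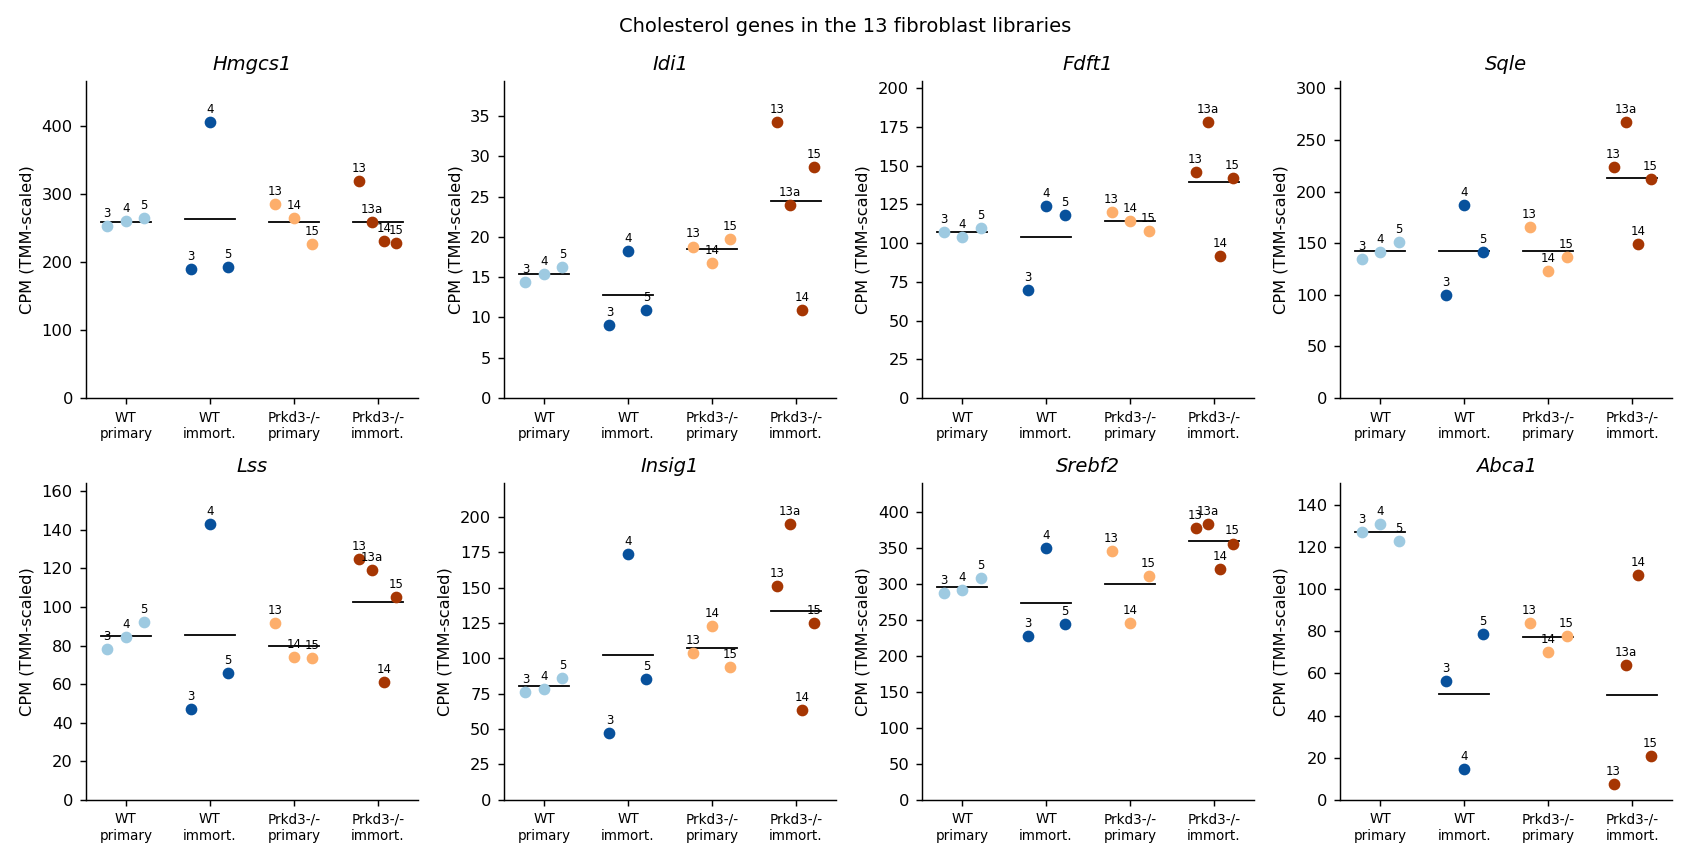
TMM-scaled CPM (linear axes from 0) of the 8 genes in each library by group, with the clone or line number beside each point and a black bar at the group mean. For the 7 genes other than Abca1, WT line 4 is the highest and line 3 the lowest of the WT lines, and the primary libraries lie closer together than the WT lines.

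Abca1, which exports cholesterol to apolipoproteins, differed from the other 7. It measured 127, 131 and 123 CPM in WT primary cells and 56.4, 14.8 and 78.9 CPM in lines 3, 4 and 5. In Prkd3-/- cells it measured 84.2, 70.4 and 77.8 CPM in primary clones and 7.27, 64.2, 107 and 20.6 CPM in lines 13, 13a, 14 and 15. All 3 WT lines lay below all 3 primary libraries, as for 15.7% of the 19836 tested genes (16.6% had all lines above); in Prkd3-/- cells line 14 was above each primary library and the other 3 lines below (5.53% of the 20298 tested genes had all lines below and 3.83% all lines above). The Log2FC was -1.38 in WT (SE 0.57, 95% confidence interval -2.79 to 0.03, adjusted p = 0.261 in edgeR's quasi-likelihood test) and -0.63 in Prkd3-/- cells (SE 0.77, adjusted p = 0.89). The WT interval includes both no difference and a large one. Without line 4, the lowest of the WT lines, the WT Log2FC was -0.94 and passed an adjusted p under 0.05 (adjusted p = 0.048 in edgeR's quasi-likelihood test), though not the study's thresholds. The same fit had 310 genes higher and 1144 lower by this rule, of 20402 tested. In bulk RNA, fewer cells that express a gene and less RNA per cell cannot be told apart, and the macrophage markers given above were lower in the WT lines than in WT primary cells; their part in the Abca1 values was not tested.

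**Figure D2:**
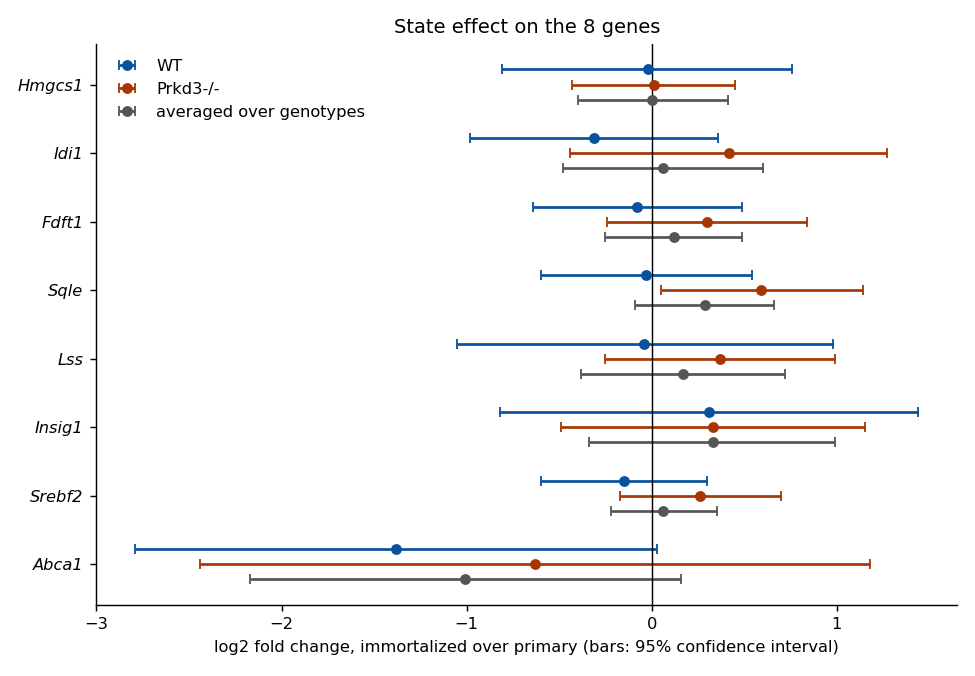
Log2 fold change of immortalized over primary cells for the 8 genes (x axis; points, edgeR estimates; bars, 95% confidence intervals) in WT cells (6 libraries), Prkd3-/- cells (7 libraries) and averaged over genotypes (13 libraries). All intervals include 0 except that of Sqle in Prkd3-/- cells (0.05 to 1.14), which did not pass after adjustment over all genes.

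Against the background of each comparison, 0 of the 8 genes passed the study's thresholds in WT, where 1.82% of the 19836 tested genes did, and 0 of 8 passed an adjusted p under 0.05, where 5.27% did. In the Prkd3-/- cells 0 of 8 passed by either rule, where 0% of the 20298 tested genes passed the study's thresholds and 0% an adjusted p under 0.05. Averaged over genotypes, 0 of 8 passed either rule (0.741% of 21197 genes passed the study's thresholds and 3.25% an adjusted p under 0.05), and 0 of 8 differed between genotypes in their state effect (0% of 21197 genes at an adjusted p under 0.05). Before adjustment, a p under 0.05 was reached by 0 of the 8 in WT, by 1 (Sqle) in Prkd3-/- cells, by 0 in the average and by 0 in the interaction, and DESeq2 called 0 of the 8 in each comparison. The median Log2FC of the 8 genes was -0.06 in WT, beside 0.04 for all tested genes, and 0.31 in Prkd3-/- cells, beside 0.07. The interaction estimate was positive for all 8 genes, from 0.03 for Insig1 (SE 0.60) to 0.75 for Abca1 (SE 1.07), with an adjusted p of 1 for each in edgeR's quasi-likelihood test. The median of these estimates was 0.42, beside 0.06 for all tested genes. The share of all genes with a positive estimate was not counted. Most of the 8 genes varied together between lines (below), so their signs are not independent of each other.

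The differences between lines ran largely in parallel across the 7 genes other than Abca1. This arrangement was noticed after the values had been seen and is given as a description. Line 4 was highest among the WT lines and line 3 lowest for each of the 7 genes other than Abca1. Over 15787 genes with a mean of at least 1 CPM, line 4 was highest for 28.8% and line 3 lowest for 32.9%. Line 14 was lowest of the Prkd3-/- lines for 6 of the 7 genes, the exception being Hmgcs1 with line 15 lowest, and line 14 was lowest for 31.3% of 15781 genes. The highest Prkd3-/- line was 13 for 3 of the 7 genes and 13a for 4. The median over the 7 genes of the log2 ratio of a line to the primary cells of its genotype was -0.61 in line 3, 0.39 in line 4 and -0.27 in line 5, and 0.51, 0.58, -0.31 and 0.33 in lines 13, 13a, 14 and 15. Wide differences between lines were not peculiar to these genes: the median ratio of the highest to the lowest line was 1.46 over all WT genes and 2.09 over all Prkd3-/- genes, against 1.09 and 1.33 among primary libraries.

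A profile of the 5 enzymes Hmgcs1, Idi1, Fdft1, Sqle and Lss was formed as their mean standardized log2 CPM, leaving out the gene compared with it. Across the 13 libraries Pearson's r with this profile was 0.958 for Lss, 0.862 for Sqle, 0.843 for Fdft1, 0.832 for Idi1 and 0.604 for Hmgcs1. The regulators had an r of 0.925 (Insig1) and 0.866 (Srebf2). Abca1 had an r of -0.609 (Spearman's rho -0.467). Among WT lines it was lowest in line 4, which had the highest enzyme profile of these lines. In Prkd3-/- cells Abca1 was lowest in line 13 (7.27 CPM) and highest in line 14, the lines with the highest and lowest profile. Other lines did not follow this inverse order. WT line 3 had the lowest profile of the 13 libraries, but less Abca1 (56.4 CPM) than line 5 (78.9 CPM) and each WT primary library. Line 13a had a higher profile than line 15, but more Abca1 (64.2 against 20.6 CPM). The median r over all 15783 genes was -0.0131. Among the 7 immortalized libraries alone, r was 0.968 for Lss, 0.969 for Insig1 and -0.675 for Abca1. The points share cell culture, library and scaling, lines 13 and 13a share a clone number, and no p is given.

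Outside the lists of genes used here, the 10 genes most like the profile of all 5 enzymes were 4930483K19Rik (r = 0.946), Rdh11 (r = 0.904), Gm43738 (r = 0.866), Gm13502 (r = 0.859), Mir7116 (r = 0.855), Pogk (r = 0.85), Gm3571 (r = 0.849), Fnip2 (r = 0.845), Gm6781 (r = 0.831) and Gcat (r = 0.825), over 13 libraries. Several lie in or on pathway genes. 4930483K19Rik is antisense to Lss and shares exon bases with it, and Gm43738 shares 97.5% of its exon bases with Fdps and Rusc1. Mir7116 lies within the span of Acly, so reads of pathway genes may be counted at these loci. Gm13502, Gm3571 and Gm6781 are annotated as processed pseudogenes and share no exon bases with another gene. The genes they derive from were not looked up, and whether reads of pathway genes are counted there was not tested. Within the lists, Cyp51, which removes the 14-alpha methyl group of lanosterol, was the most similar gene that did not enter the profile (r = 0.945). It measured 173, 175 and 182 CPM in WT primary cells and 119, 264 and 176 CPM in lines 3, 4 and 5.

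The other genes of the pathway were grouped by role in lists of 59 genes in all, which include the 8. In WT, 2 of the 59 passed the study's thresholds and 3 an adjusted p under 0.05, and 8 had an unadjusted p under 0.05. Of all 19836 tested genes, 1.82% passed the study's thresholds, 5.27% an adjusted p under 0.05, and 3905 had an unadjusted p under 0.05. The count of list genes at an adjusted p under 0.05 depended on the libraries included. Without line 4 it was 10 of the 59 (Abca1, Abcg1, Elovl6, Fdps, Hmgcs1, Nceh1, Pmvk, Soat1, Srebf1 and Vldlr). It was 6 without line 3, 7 without line 5 and 1 with the replicate block. Without WT primary clone 3, 4 or 5 it was 2, 1 or 1. The count over all genes moved as well. Without line 4, 310 genes were higher and 1144 lower of 20402. Without line 3 these were 869 and 1626 of 20370, and without line 5, 712 and 1845 of 20285. With the replicate block they were 5 and 209 of 19836. Without WT primary clone 3, 4 or 5 they were 8 and 290 of 20254, 7 and 280 of 20262, or 7 and 290 of 20331. In the Prkd3-/- cells 0 of 59 passed either rule in edgeR's quasi-likelihood test, and DESeq2 and limma called 0. Of the 59, 2 had an unadjusted p under 0.05, as had 1331 of all 20298 tested genes. Averaged over genotypes 0 of 59 passed either rule in edgeR's quasi-likelihood test, with 5 at an unadjusted p under 0.05 (3663 of 21197 over all genes). DESeq2 called 1 by the study's thresholds (over all genes 76 higher and 839 lower) and 2 by an adjusted p under 0.05 (461 higher and 1323 lower of 25054). Without line 13a edgeR's test gave 3 at an adjusted p under 0.05 (Abcg1, Apoe and Nceh1). Over all genes it gave 128 higher and 911 lower of 20993. In the interaction 0 of 59 passed, with 0 at an unadjusted p under 0.05, and DESeq2 called 0.

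The mevalonate pathway enzymes, from acetyl-CoA to the isoprene units, had 0 of 8 genes called in WT, with a median Log2FC of -0.21; their values ran from -0.86 for Pmvk, phosphomevalonate kinase, to 0.23 for Ggps1, which makes geranylgeranyl diphosphate. Among Prkd3-/- libraries 0 of 8 were called and the median was 0.10, from 0.01 for Hmgcs1 to 0.49 for Acat2, which condenses acetyl-CoA. The enzymes of the sterol branch, from squalene to cholesterol, had 0 of 13 called in either genotype, with a median Log2FC of -0.07 in WT and 0.30 in Prkd3-/- cells. Their range was -0.55 (Dhcr7, the last reductase) to 0.25 (Ebp, a sterol isomerase) in WT and -0.23 (Hsd17b7) to 0.72 (Lbr, a sterol reductase of the nuclear envelope) in Prkd3-/- cells. Not all genes of these lists followed the enzyme profile. Apart from the enzymes that form it, r ran from -0.19 (Ggps1) to 0.891 (Acat2) in the mevalonate list. In the sterol branch it ran from 0.31 (Tm7sf2) to 0.945 (Cyp51), over 13 libraries. Line 4 was the highest WT line for 7 of the 8 mevalonate enzymes and 10 of the 13 sterol branch enzymes, and line 3 the lowest for 6 and 11. Over all genes these shares were 28.8% and 32.9%, and the lists include the enzymes already described. Of the Prkd3-/- lines, line 14 was lowest for 4 and 8 (31.3% of all genes). Line 13 was highest for 5 and 2 (35.5% of all genes), and line 13a for 2 and 9 (17.3%).

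The genes of SREBP transport and processing, which include the SREBP escort Scap and the proteases of the Golgi, had 0 of 9 called in either genotype. Their median Log2FC was 0.09 in WT, from -0.47 for Srebf1 to 0.31 for Insig1, and 0.26 in Prkd3-/- cells, from -0.27 for Srebf1 to 0.33 for Scap. Apart from Insig1 and Srebf2, their r with the enzyme profile ran only from -0.692 (Insig2) to 0.173 (Mbtps2) over 13 libraries. The fatty acid synthesis enzymes, which answer mainly to the related factor SREBP1, had 0 of 12 called in either genotype. Their median was -0.11 in WT, from -0.60 for Acss2, which makes acetyl-CoA from acetate, to 0.45 for the desaturase Fads2, and 0.13 in Prkd3-/- cells, from -0.30 for Acss2 to 0.36 for the elongase Elovl5. Line 4 was the highest WT line for 10 of these 12 genes and line 3 the lowest for 8. Of the Prkd3-/- lines, line 14 was lowest for 8 but highest for 3, and lines 13 and 13a were highest for 4 each.

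**Figure D3:**
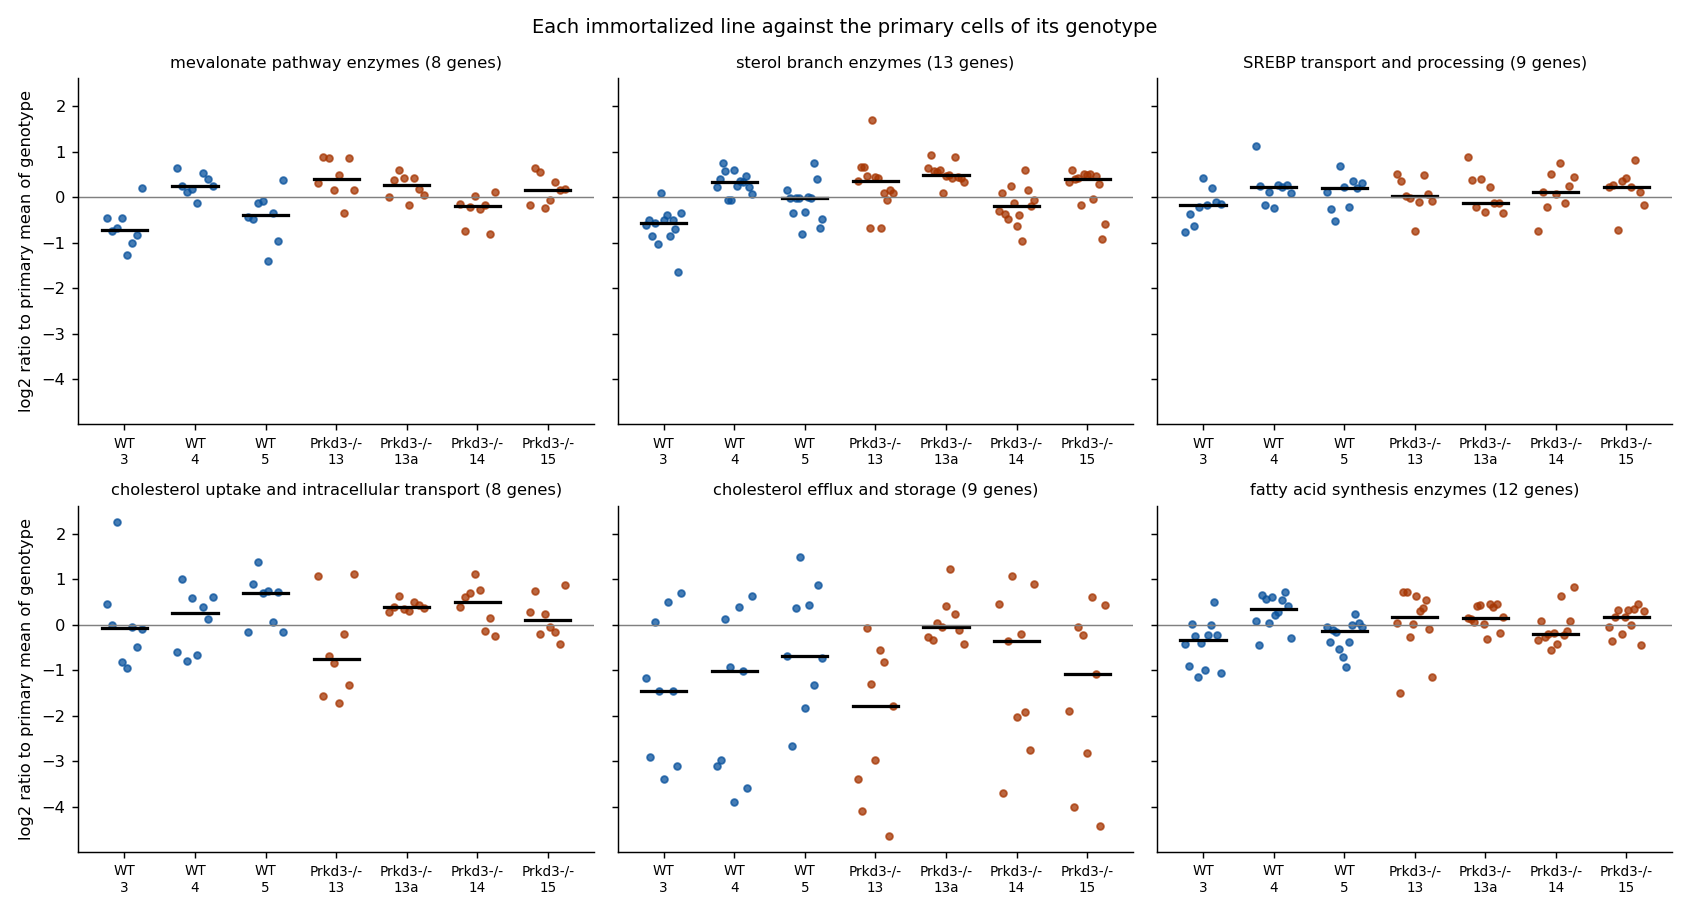
Log2 ratio of each immortalized line to the mean of the primary cells of its genotype (y axis; 1 point a gene, black bars at the median), by gene list, for the 3 WT lines (blue) and 4 Prkd3-/- lines (brown). The medians of the mevalonate enzymes are -0.72, 0.24 and -0.39 in WT lines 3, 4 and 5. Those of the efflux and storage genes are -1.45, -1.01 and -0.69 in these lines and -1.78, -0.04, -0.35 and -1.09 in lines 13, 13a, 14 and 15. Of these 9 genes, 4 lie above the primary mean in WT line 5 and 4 in line 13a.

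Of the 8 genes of uptake and intracellular transport, 0 passed in either genotype by edgeR's test, and 0 had an unadjusted p under 0.05. The median Log2FC of the list was 0.15 in WT and 0.22 in Prkd3-/- cells. The lowest value in WT was -0.12 for Lipa, the acid lipase of lysosomes. In Prkd3-/- cells the values ran from -0.15 for Npc2, a cholesterol carrier of lysosomes, to 0.61 for Stard4, a sterol carrier protein. Vldlr, a lipoprotein receptor, had the highest WT Log2FC of the list, 1.37, with an adjusted p of 0.348 in edgeR's quasi-likelihood test. Without line 4 it passed an adjusted p under 0.05, in the fit where 310 genes were higher and 1144 lower of 20402. It measured 22.7, 24.3 and 23.3 CPM in WT primary cells and 112, 13.4 and 61.2 CPM in lines 3, 4 and 5. Its order among the WT lines was the reverse of that of the enzymes, and its r with the enzyme profile was -0.779 over 13 libraries.

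The genes that edgeR's test called in WT with all lines were in the list of efflux and storage. Of its 9 genes, 2 passed the study's thresholds in WT, both lower, and 1 more passed an adjusted p under 0.05, higher. Abcg1, an exporter that works beside ABCA1 and is abundant in macrophages, measured 12.5, 12.4 and 12.4 CPM in WT primary cells and 1.58, 1.48 and 1.87 CPM in lines 3, 4 and 5. Its Log2FC was -2.95 (SE 0.15, adjusted p = 0.000575 in edgeR's quasi-likelihood test). Nceh1, which frees cholesterol from stored esters and is also known from macrophages, measured 33.4, 34.3 and 37 CPM in primary cells and 12.7, 17.3 and 13.9 CPM in lines, with a Log2FC of -1.29 (SE 0.14, adjusted p = 0.00726). Soat1, which esterifies cholesterol for storage, measured 76.2, 77 and 74.5 CPM in primary cells and 108, 99.4 and 103 CPM in lines, with a Log2FC of 0.41 (SE 0.07, adjusted p = 0.0349). Each of these 3 genes had WT groups that did not overlap, as had 15.7% of all tested genes with the lines below and 16.6% with the lines above.

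These calls depended on the fit. With the replicate block the adjusted p was 0.0238 for Abcg1, 0.0596 for Nceh1 and 0.22 for Soat1, and in a joint fit of 13 libraries it was 0.363, 0.353 and 0.85. Without WT primary clone 3, 4 or 5 in turn the adjusted p of Nceh1 was 0.0494, 0.0527 or 0.0541 and that of Soat1 was 0.198, 0.209 or 0.221. Without WT line 5 that of Nceh1 was 0.0139, and without WT primary clone 3 that of Abcg1 was 0.01, at the threshold.

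The Prkd3-/- values of these genes went with 2 libraries. Abcg1 measured 1.44, 7.54 and 2.98 CPM in primary clones 13, 14 and 15, and 0.0927, 2.52, 0.156 and 0.107 CPM in lines 13, 13a, 14 and 15. Primary clone 14 and line 13a were the highest of their groups for Abcg1, and likewise for the summed macrophage markers (1058.1 and 175 CPM). Nceh1 was highest in the same libraries, with 44.4 CPM in primary clone 14 and 28.4 CPM in line 13a against 6.3 to 19.1 CPM in the other 5 libraries. Apoe, an apolipoprotein that macrophages secrete in quantity, had the lowest Log2FC of the list in Prkd3-/- cells (-3.28, adjusted p = 0.788 in edgeR's quasi-likelihood test), with 250 CPM in primary clone 14 against 3.73 and 7.56 CPM in clones 13 and 15. Soat1, which was higher in the WT lines while the markers were lower, was also highest in primary clone 14 (149 CPM) and line 13a (268 CPM). Abca1 did not share these highest libraries: primary clone 14 had the lowest Abca1 of the 3 Prkd3-/- clones, at 70.4 CPM, and line 14, with 10.3 CPM of macrophage markers in all, had the highest Abca1, at 107 CPM. The part of macrophages in the values of Abcg1, Nceh1, Soat1 and Apoe was not tested.

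In WT, 7 of the 10 macrophage markers passed the study's thresholds, all lower, where 1.82% of all tested genes did. An adjusted p under 0.05 was reached by 9, where 5.27% of all did. Their median Log2FC was -4.27, beside 0.04 for all tested genes. In Prkd3-/- cells 0 of the 10 passed either rule in edgeR's test, with a median of -3.43, beside 0.07. Averaged over genotypes Csf1r and Fcgr1 passed an adjusted p under 0.05 (3.25% of all tested genes), and Csf1r also the study's thresholds (0.741%). None of the 10 was at 0 counts in a WT line, whereas 7 of the 10 were at 0 in Prkd3-/- line 13, Adgre1, C1qa, C1qc, Mrc1, Ptprc, Tyrobp and Fcgr1, and Fcgr1 in line 15. The fibroblast markers had 0 of 10 called in either genotype in edgeR's test. The 10 proliferation genes, of which 0 were called in either genotype, summed to 808, 571 and 247 CPM in WT lines 3, 4 and 5 and to 2532.5, 611, 690 and 1276.4 CPM in lines 13, 13a, 14 and 15. In WT this order did not match that of the enzymes, where line 4 stood highest. In Prkd3-/- cells line 13 was highest for both this sum and the enzyme profile, but the orders of the other lines differed. Line 13a had the lowest sum of these lines, 611 CPM, but the highest enzyme profile after line 13. The r of the 10 proliferation genes with the enzyme profile ran from 0.292 (Top2a) to 0.549 (Mcm2) over 13 libraries, beside a median of -0.0131 over all genes compared, and the part of proliferation in the enzyme levels was not tested.

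**Figure D4:**
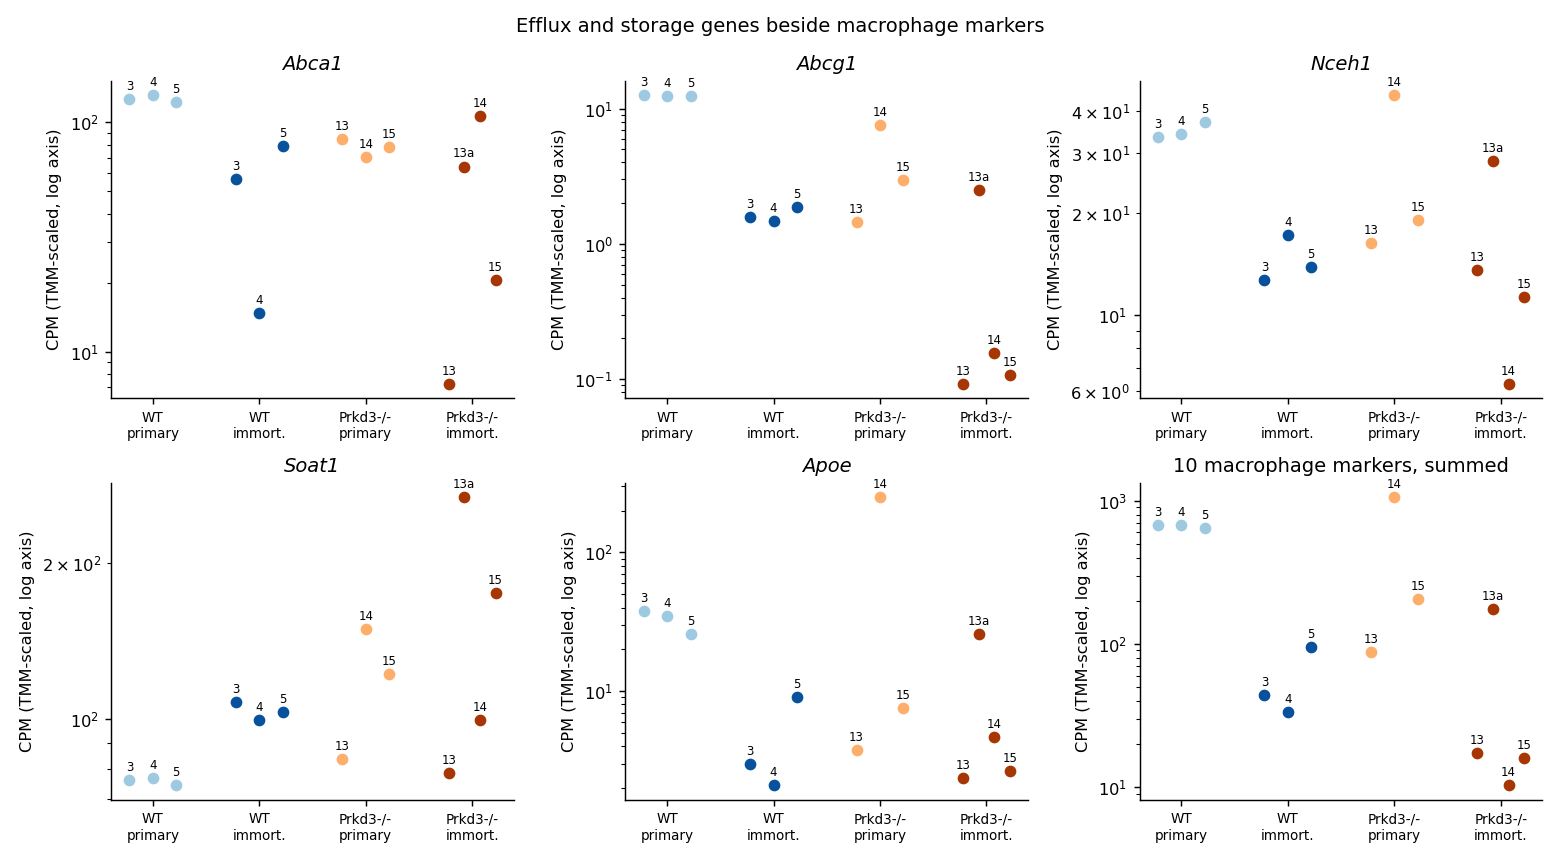
TMM-scaled CPM (log axes) of Abca1, Abcg1, Nceh1, Soat1 and Apoe and the summed CPM of 10 macrophage markers in each library, with clone or line numbers beside the points. In Prkd3-/- cells primary clone 14 and line 13a are the highest of their groups for Abcg1, Nceh1, Soat1, Apoe and the markers, while Abca1 is highest in line 14.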

How the data were processed

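Poly-A RNA of primary and immortalized MEFs was sequenced in pairs, and the authors deposited raw counts per gene, without normalization, in a table for the WT and a table for the Prkd3-/- libraries. Per the submitters' processing notes the reads were mapped to mm10 (GRCm38) with STAR 2.7.10a, handled with SAMtools 1.18 and counted with featureCounts of Subread 2.0.6. The WT file header gives paired counting without strand in which a pair counts for each gene it overlaps; the options for the Prkd3-/- table are not given in the sources used here.

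From these counts, edgeR 4.0.16 in R 4.3.3 was used (its own low-count filter, TMM scaling, the quasi-likelihood test with robust estimation, Benjamini-Hochberg adjustment over all tested genes). Immortalized and primary libraries were compared within WT (6 libraries) and within Prkd3-/- (7), and over all 13 as the average state effect and the genotype by state interaction (called at an adjusted p under 0.05). The study's thresholds were an adjusted p under 0.01 and |Log2FC| of at least 1. CPM are TMM-scaled, FPKM use the lengths in the tables, and line ratios add 0.1 CPM. The floor of 3 counts covers counting error only. The labels give clones and not how cultures were kept apart, so p-values measure the spread between these libraries, which may in part be technical.

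Samples were grouped by genotype and state in the labels, and clone numbers are those of the labels. Same-numbered primary and immortalized libraries deviated together with r of -0.0348, 0.0197 and -0.0375 in WT and of 0.144, -0.285, 0.0867 and 0.0414 in Prkd3-/- cells (lines 13, 13a, 14 and 15); the clone as a replicate block was an alternative. Other alternatives were DESeq2 1.42.0, limma 3.58.1 with a weight per state, other scalings and filters, a joint fit, lines 13 and 13a summed, a looser threshold and each library left out.

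The 8 genes and the lists (95 genes) were chosen with earlier results of these data known. Of these, 6 are not reported here, and counts and medians of the lists cover the other 89. Named genes are the 8, list genes that passed a rule in any comparison or else the highest and lowest Log2FC of a list, the 10 genes outside the lists most like the enzyme profile (mean of at least 1 CPM), and Prkd3. Some list genes are also named for the highest or lowest r with the enzyme profile. Gene overlaps were taken from the exon positions deposited with the counts, gene types from GENCODE M21 (GRCm38), and promoters from RefSeq.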

Additional observations from a re-analysis of the deposited data

How the results depend on the processing

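None of the 8 genes passed the study's thresholds, or an adjusted p under 0.05 for the interaction, under any alternative run. At an adjusted p under 0.05 alone, Abca1 (adjusted p = 0.048) and Hmgcs1 (adjusted p = 0.0474) passed in the WT edgeR fit without line 4. There 310 genes were higher and 1144 lower by this rule, of 20402 tested. In the WT comparison 361 genes passed, and 1368 passed with DESeq2, 157 with at least 10 counts in every library, 198 with limma and a weight per state, 0 with the replicate block (the paired analysis), 0 in the joint fit of 13 libraries and 1045 at an adjusted p under 0.05 with no fold limit; leaving out each library in turn gave 48 to 743. Among Prkd3-/- libraries 0 genes passed, and 190 passed with DESeq2 and 1 in the joint fit; leaving out a library gave 0 to 0. For the average 157 passed, and 915 passed with DESeq2, 5 with the replicate block and 270 with lines 13 and 13a summed; leaving out a library gave 14 to 420, the highest without line 13a. For the interaction 0 passed, and 37 passed with DESeq2; leaving out a library gave 0 to 2. The causes were not tested. Of the 10 genes most like the enzyme profile by Pearson's r, 5 were also among the 10 by Spearman's rho.

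The sign of small differences was not stable. The Log2FC of Hmgcs1 in Prkd3-/- cells was -0.04 with the replicate block, -0.03 with at least 10 counts in every library and -0.07 with lines 13 and 13a summed. In the average it was -0.0024 with DESeq2, -0.0018 with RLE size factors, -0.07 with the block and -0.04 with the lines summed, and Idi1 had -0.06 with the block and -0.0029 with the lines summed. Leaving out a library in WT gave -0.47 to 0.17 for Hmgcs1, -0.22 to 0.15 for Fdft1, -0.27 to 0.17 for Sqle, -0.62 to 0.26 for Lss and -0.31 to 0.66 for Insig1. For Prkd3-/- cells it gave -0.10 to 0.08 for Hmgcs1 and -0.01 to 0.62 for Soat1, and in the average -0.24 to 0.09 for Hmgcs1, -0.13 to 0.18 for Idi1, -0.14 to 0.32 for Lss and -0.05 to 0.12 for Srebf2. Abca1, Abcg1 and Nceh1 had a negative Log2FC in all alternatives run.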
